A study of Mus musculus with 6 samples.

Results

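The genes that carry pyruvate into the citrate cycle, turn the cycle and feed or drain it were compared between 2 genotypes of mouse colon. These 38 genes were chosen by name from the pathway, among the 27202 genes of the deposited table, at a time when the genotype values of these libraries were already known. Their differences between genotypes are therefore given as a description. They fall into 14 steps, from the mitochondrial pyruvate carrier to the enzymes that fill the cycle. All 38 passed the filter on low values (a mean of at least 10 normalized counts over the 6 libraries), as did 16246 genes in all.

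The 6 libraries were made from colonic tissue. In 3 of them, Nedd4l fl/fl Villin-Cre, Cre deletes the ubiquitin ligase Nedd4l, and the other 3, Nedd4l fl/fl, are littermates without Cre that served as controls. Every mouse was 8 to 10 weeks old, carried the floxed Nedd4l alleles and received 2% dextran sulfate sodium (DSS), an agent that injures the colonic epithelium, in its drinking water until day 7. No library of uninjured colon was analysed here, so each value belongs to the injured colon. The Villin promoter drives Cre in intestinal epithelial cells, and the stroma, muscle and immune cells of the tissue keep Nedd4l. In such bulk tissue, fewer cells of a type and less RNA per cell cannot be told apart.

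Pyruvate, the end product of glycolysis, enters the mitochondrial matrix through the Mpc1-Mpc2 carrier and is oxidised to acetyl-CoA by the pyruvate dehydrogenase complex. Kinases (Pdk) switch that complex off by phosphorylation, and phosphatases (Pdp) switch it on again. Citrate synthase joins acetyl-CoA to oxaloacetate, and the cycle then yields NADH, FADH2 and GTP or ATP while it restores oxaloacetate. Anaplerotic enzymes such as pyruvate carboxylase refill the cycle, and malic enzymes, Pck1 and Acly draw carbon out of it or pass it back to pyruvate and acetyl-CoA. Colonocytes are known to burn much of their fuel, butyrate above all, through this cycle.

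The sequence before the start is shown for 3 members, because Me1 had the widest gap between genotypes in the pathway and Cs and Mdh2 open and close the cycle. They were taken from the 250 bases before the RefSeq start on GRCm38.p6 and run 5′ to 3′ on the strand of the gene. The RefSeq starts of Me1 and Mdh2 lie inside the genes as the table lists them, by 39 and 169 bases, and those bases are left off, which leaves 211 and 81. The sequences are shown with capitals for CCAAT and for the GC box GGGCGG on either strand.
Me1 (chr9:86695954-86696164, minus strand): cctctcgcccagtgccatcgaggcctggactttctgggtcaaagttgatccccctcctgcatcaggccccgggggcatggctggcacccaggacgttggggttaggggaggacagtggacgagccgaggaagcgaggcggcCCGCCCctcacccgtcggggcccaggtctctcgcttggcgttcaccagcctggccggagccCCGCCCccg
Cs (chr10:128337477-128337726, plus strand): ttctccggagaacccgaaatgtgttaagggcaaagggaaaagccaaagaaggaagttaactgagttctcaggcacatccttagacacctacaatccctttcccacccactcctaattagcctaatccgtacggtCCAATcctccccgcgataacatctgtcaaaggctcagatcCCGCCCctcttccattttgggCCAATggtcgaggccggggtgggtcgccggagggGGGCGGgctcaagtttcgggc
Mdh2 (chr5:135778399-135778479, plus strand): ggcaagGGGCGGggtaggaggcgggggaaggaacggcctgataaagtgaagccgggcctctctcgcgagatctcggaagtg
The Me1 stretch, from 1 of its 2 listed starts, held 2 GC boxes and 0 CCAAT boxes. That of Cs held 2 CCAAT and 2 GC boxes, and that of Mdh2 held 1 GC box and 0 CCAAT boxes. Among the RefSeq promoters, 34 of the 38 members had 45 entries, of which 24 (53.3%) held CCAAT and 28 (62.2%) a GC box, against 33.8% and 32.7% of all 32851 promoters, each read over the whole 250 bases. The E-box CACGTG, whose letters read the same on both strands, was in 6 of the 45 (13.3%) and in 6.02% of all. A match is only a description of these letters and not a site of binding.

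The deleted gene came first as a check of the labels. Nedd4l stood at 476, 942 and 566 normalized counts, which are a gene's reads over the size factor of its library, in the 3 knockout libraries (replicates 1, 2 and 3 of Nedd4l fl/fl Villin-Cre) and at 1241, 1271 and 1266 in the controls. All 3 knockout libraries were lower, replicate 2 the least so, with a log2 fold change of -0.99 ± 0.24 (SE, limma, adjusted p = 0.225, n = 3 against 3). Over all genes, knockout replicate 2 correlated more closely with the controls (mean r = 0.977) than with its own genotype (0.966). Knockout replicate 1 had S100a8 at 2708 normalized counts against 12.8 to 417 in the other 5 libraries. Totals in steps (the value of which each library's values are whole multiples) ran from 14914367 to 17547270 over the 6 libraries. The labels number the replicates without saying that each is a separate mouse, so standard errors and p-values measure the spread between these samples, which may be technical. With equal weights limma called 0.0% of the 16246 genes at an adjusted p under 0.05, and 1122 genes were higher and 1151 lower at an unadjusted p under 0.05. On 5 libraries, without control replicate 3, edgeR called 0 genes and DESeq2 198.

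Most members lay lower in the Nedd4l fl/fl Villin-Cre colon, each by a small amount. Of the 38, 28 (73.7%) had a log2 fold change below 0, against 49.8% of all genes tested. The 3 knockout libraries did not overlap the 3 controls for 12 members (31.6%), against 21.4% of all genes. In 10 of these the knockout libraries were the lower ones (Mpc1, Dld, Pdhx, Pdp1, Cs, Idh3b, Ogdh, Dlst, Suclg2 and Mdh2; 26.3% of members against 10.9% of all genes). In the other two, the malic enzymes Me1 and Me2, they were the higher ones, where the background is 10.5%. At an unadjusted p under 0.05 there were 8 lower members, with 7.08% of all genes as background, and 2 higher ones, with 6.91%. The median log2 fold change was -0.14 over the members and 0.0013 over all genes. No member passed limma's adjusted threshold, and the adjusted p over all genes ran from 0.211 for Me1 to 0.992 for Pck2.

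**Figure D1:**
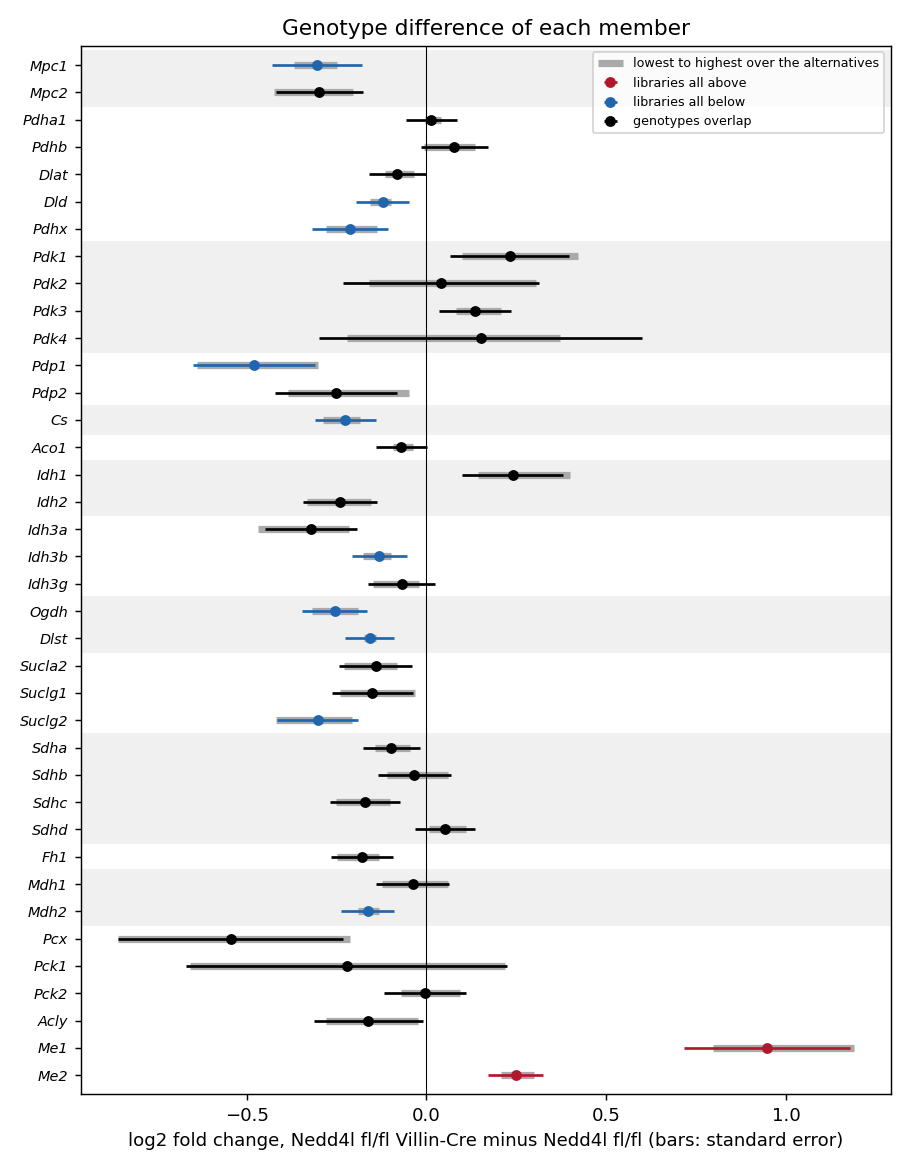
Log2 fold change of the 38 members (points) in pathway order, Nedd4l fl/fl Villin-Cre minus Nedd4l fl/fl, with standard errors (thin bars, n = 3 against 3) and the lowest and highest value over 13 other ways of processing (grey). Blue and red points are members whose genotypes do not overlap: 10 lie below 0, and Me1 (0.95) and Me2 (0.25) lie above it.

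The mitochondrial pyruvate carrier was lower in both of its subunits. Mpc1 (chr17:8282904-8297661), without which no carrier forms, stood at 227, 247 and 255 normalized counts in the knockout libraries and at 275, 323 and 304 in the controls. Every knockout value was below every control value, with a log2 fold change of -0.30 ± 0.12 (SE). Its partner Mpc2 had the same difference (-0.30 ± 0.12), but knockout replicate 2, at 1176 normalized counts, lay among the controls, which ran from 1162 to 1287.

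Within the pyruvate dehydrogenase complex the subunits differed in their values. The 2 subunits of the E1 decarboxylase, Pdha1 (log2 fold change 0.014) and Pdhb (0.078), differed by less than their standard errors, and the E2 acetyltransferase Dlat stood at -0.08. Dld, the E3 dehydrogenase that several such complexes share, was at 2575, 2694 and 2599 normalized counts in the knockout libraries and 2895, 2952 and 2720 in the controls (-0.12 ± 0.07, SE). Pdhx, which tethers E3 to the core, was at 414, 412 and 423 against 440, 536 and 476 (-0.21 ± 0.11, SE). Neither Dld nor Pdhx overlapped between genotypes, although the gap between the highest knockout and the lowest control library was narrow for both, and narrower for Dld in proportion to its level.

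All 4 kinases that inactivate the complex had fold changes above 0, and every one of them overlapped. Pdk1, a known target of the hypoxia response, had 1692, 1079 and 1518 normalized counts against 1289, 1093 and 1215 (0.23 ± 0.17, SE). Knockout replicate 2 held the lowest Pdk1 value of all 6 libraries, and the other two knockout libraries the highest. The values of Pdk2 (0.04) and Pdk3 (0.14) were smaller still. Pdk4, the kinase known for its rise in fasting, was hardly expressed, at 14.4, 8.84 and 13.4 normalized counts in the knockout libraries and 13.8, 14.4 and 5.99 in the controls. At such counts its log2 fold change of 0.15 ± 0.45 (SE) shows no order of the genotypes.

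The phosphatases that reactivate the complex lay on the other side. Pdp1 (chr4:11958184-11966452), the calcium-stimulated catalytic subunit, stood at 333, 343 and 387 normalized counts in the knockout libraries against 631, 472 and 402 in the controls. This was the largest difference below 0 among the 12 members without overlap (-0.48 ± 0.17, SE), and it shrank to -0.30 without control replicate 1, the highest library. Pdp2 had -0.25 ± 0.17 (SE) and overlapped, with its lowest value of 491 normalized counts in knockout replicate 1, without which the difference was -0.05. Summed per length, the 4 kinases stood to the 2 phosphatases as 3.23, 2.47 and 2.60 in the knockout libraries and as 1.70, 1.96 and 2.17 in the controls, a ratio chosen after its values were seen. The knockout ratios were all above the control ratios.

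Citrate synthase, encoded by Cs (chr10:128337734-128362479), had the highest normalized count of the members. It stood at 9342, 10777 and 9561 in the knockout libraries and at 11095, 11658 and 11889 in the controls. No values overlapped, and the log2 fold change was -0.23 ± 0.08 (SE), a mean 14.3% lower. The cytosolic aconitase Aco1, which doubles as the iron regulatory protein IRP1, had -0.07 and overlapped.

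At isocitrate dehydrogenase the cytosolic and mitochondrial NADP enzymes differed in direction. Idh1 (chr1:65158616-65186500), the cytosolic one, had 4015, 2814 and 3829 normalized counts in the knockout libraries and 3125, 2740 and 3071 in the controls (0.24 ± 0.14, SE). Idh2, in the matrix, had 1473, 1888 and 1641 against 2027, 1872 and 1981 (-0.24 ± 0.10, SE). Both overlapped through knockout replicate 2, which lay among the controls for each. Per length, Idh1 stood to Idh2 as 2.55, 1.39 and 2.18 in the knockout libraries and as 1.44, 1.37 and 1.45 in the controls, again a ratio picked after its values were seen. Knockout replicates 1 and 3 were above all controls and replicate 2 was not.

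The NAD-linked isocitrate dehydrogenase, the regulated enzyme of the cycle, is built from 3 kinds of subunit, and all 3 had fold changes below 0. The catalytic subunit Idh3a showed the largest, -0.32 ± 0.13 (SE), from 2620, 3715 and 2850 normalized counts against 3807, 3636 and 3896. Idh3b had 2711, 3021 and 2784 against 3071, 3052 and 3194 (-0.13 ± 0.08, SE) and did not overlap, while Idh3g overlapped (-0.07 ± 0.09, SE). Knockout replicate 2 lay among the controls for Idh3a and above them for Idh3g. The ratio of Idh3a to Idh3g per length, also chosen after the values were seen, was 0.906, 1.08 and 0.962 in the knockout libraries and 1.19, 1.17 and 1.13 in the controls. The knockout ratios were all lower.

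The 2-oxoglutarate dehydrogenase complex was lower in both of its own subunits. Ogdh (chr11:6291633-6356642), the E1 decarboxylase, stood at 5545, 6624 and 6115 normalized counts in the knockout libraries and at 6926, 7642 and 7217 in the controls (-0.26 ± 0.09, SE). Dlst, the E2 succinyltransferase, had 3789, 3911 and 3761 against 4247, 4365 and 4174 (-0.16 ± 0.07, SE). Neither gene overlapped between genotypes, and neither did Dld, the E3 they share with pyruvate dehydrogenase. Dlst was among the tightest members, with an SD of 80.1 normalized counts in the knockout and 96.5 in the control libraries (n = 3 each).

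Succinyl-CoA synthetase had all 3 subunits below 0. Suclg2 (chr6:95473009-95718800), which sets the GTP-forming enzyme, stood at 2425, 3250 and 2684 normalized counts against 3464, 3264 and 3505 (-0.30 ± 0.11, SE). Its genotypes were separated by a small margin only, between knockout replicate 2 and control replicate 2. Sucla2, the ATP-forming subunit, and the shared Suclg1 both overlapped, at -0.14 ± 0.10 and -0.15 ± 0.11 (SE).

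Succinate dehydrogenase, which is also complex II of the respiratory chain, showed no separation of the genotypes. Its flavoprotein Sdha had -0.10, its iron-sulfur subunit Sdhb -0.03, and its membrane anchors Sdhc and Sdhd -0.17 and 0.05. All 4 overlapped, and Sdhd was the one matrix-cycle enzyme gene of 16 with a value above 0. Those 16 genes (Cs, Idh2, the 3 Idh3, Ogdh, Dlst, the 3 succinyl-CoA synthetase, the 4 succinate dehydrogenase genes, Fh1 and Mdh2) had a median of -0.16, and 6 of them did not overlap (37.5%, against 21.4% of all genes). Fumarase, Fh1, had -0.18 ± 0.09 (SE) and overlapped, since knockout replicate 2 (2138 normalized counts) exceeded the lowest control (2117).

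Malate dehydrogenase closes the cycle. The matrix enzyme Mdh2 (chr5:135778480-135790398) had 4660, 5052 and 4881 normalized counts in the knockout libraries and 5244, 5655 and 5439 in the controls, with no overlap (-0.16 ± 0.07, SE). Its cytosolic counterpart Mdh1, part of the malate-aspartate shuttle, had -0.04 ± 0.10 (SE) with knockout values of 4566 to 5880 on both sides of the controls, which ran from 5337 to 5412.

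The malic enzymes, which turn malate into pyruvate, were the only members that stood higher without overlap, among 10 with a log2 fold change above 0. Me1 (chr9:86581371-86695953), the cytosolic enzyme that yields NADPH, had 392, 228 and 363 normalized counts in the knockout libraries against 163, 196 and 141 in the controls. The 3 knockout libraries were all above the controls, at a mean of 328 ± 87.7 (SD, n = 3) against 167 ± 27.8, and knockout replicate 2 lay nearest to them. The log2 fold change was 0.95 ± 0.23 (SE), or 1.93-fold. It passed limma's threshold over all genes only when libraries were weighted by array weights (adjusted p = 0.0212, with 3.88% of all genes called) or when knockout replicate 2 was left out (1.19, adjusted p = 0.0470, with 0.751% called). In the other 11 alternatives the adjusted p of Me1 lay above 0.05, up to 0.511.

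Me2, the mitochondrial malic enzyme, had 3585, 3536 and 3423 normalized counts against 2814, 2915 and 3159, again with no overlap (0.25 ± 0.08, SE). In contrast to Me1, its 3 knockout libraries were close together, with an SD of 82.7 normalized counts. Per length, Me2 was the more abundant of the pair in each library: Me1 amounted to 0.0698, 0.0411 and 0.0677 of Me2 in the knockout libraries and to 0.0369, 0.0429 and 0.0284 in the controls, and those ratios overlapped.

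Pyruvate carboxylase and the cytosolic phosphoenolpyruvate carboxykinase spread the most among the knockout libraries. Pcx (chr19:4510472-4621752), which makes oxaloacetate from pyruvate, had 1375, 3373 and 2241 normalized counts against 3188, 3099 and 3265. Knockout replicate 2 was the highest of all 6 libraries and replicates 1 and 3 the lowest, so that the log2 fold change of -0.54 ± 0.31 (SE) went from -0.86 without replicate 2 to -0.21 without replicate 1. Pck1, which takes oxaloacetate towards gluconeogenesis, had 369, 1246 and 685 against 785, 664 and 960 (-0.22 ± 0.45, SE), and its sign turned without knockout replicate 1 (0.22). The mitochondrial Pck2 did not separate (-0.003 ± 0.11, SE), and neither did Acly (-0.16 ± 0.15, SE), which splits exported citrate into acetyl-CoA for lipid synthesis.

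**Figure D2:**
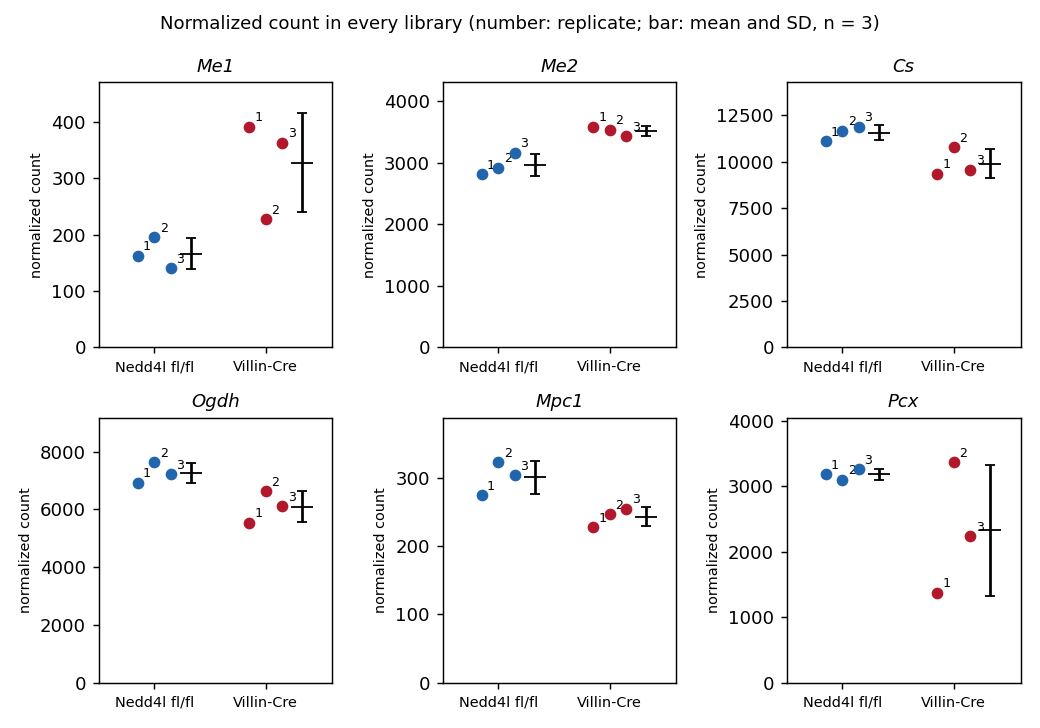
Normalized count (vertical axes, from 0) of Me1, Me2, Cs, Ogdh, Mpc1 and Pcx in each library, numbered by replicate, with the mean and SD of each genotype (n = 3). Me1 and Me2 lie above the controls in all 3 knockout libraries, Cs, Ogdh and Mpc1 below them, and Pcx on both sides.

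The members were not shifted to the same degree in each knockout library. Measured against the control mean on the log2 scale, the median member stood at -0.22 in knockout replicate 1, -0.04 in replicate 2 and -0.11 in replicate 3, while the medians over all genes lay between -0.0009 and 0.016 in the 6 libraries. The controls had member medians of -0.01, -0.03 and 0.03. Of the 38 members, 25 had their lowest value of all libraries in knockout replicate 1, and 10 had their highest in knockout replicate 2. Without knockout replicate 1 the median log2 fold change of the members was -0.05, and 14 did not overlap (36.8%, against 30.7% of all genes). Without knockout replicate 2, the library with the most Nedd4l left among the knockouts, the median was -0.18 and 25 did not overlap (65.8%, against 37.6% of all genes).

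**Figure D3:**
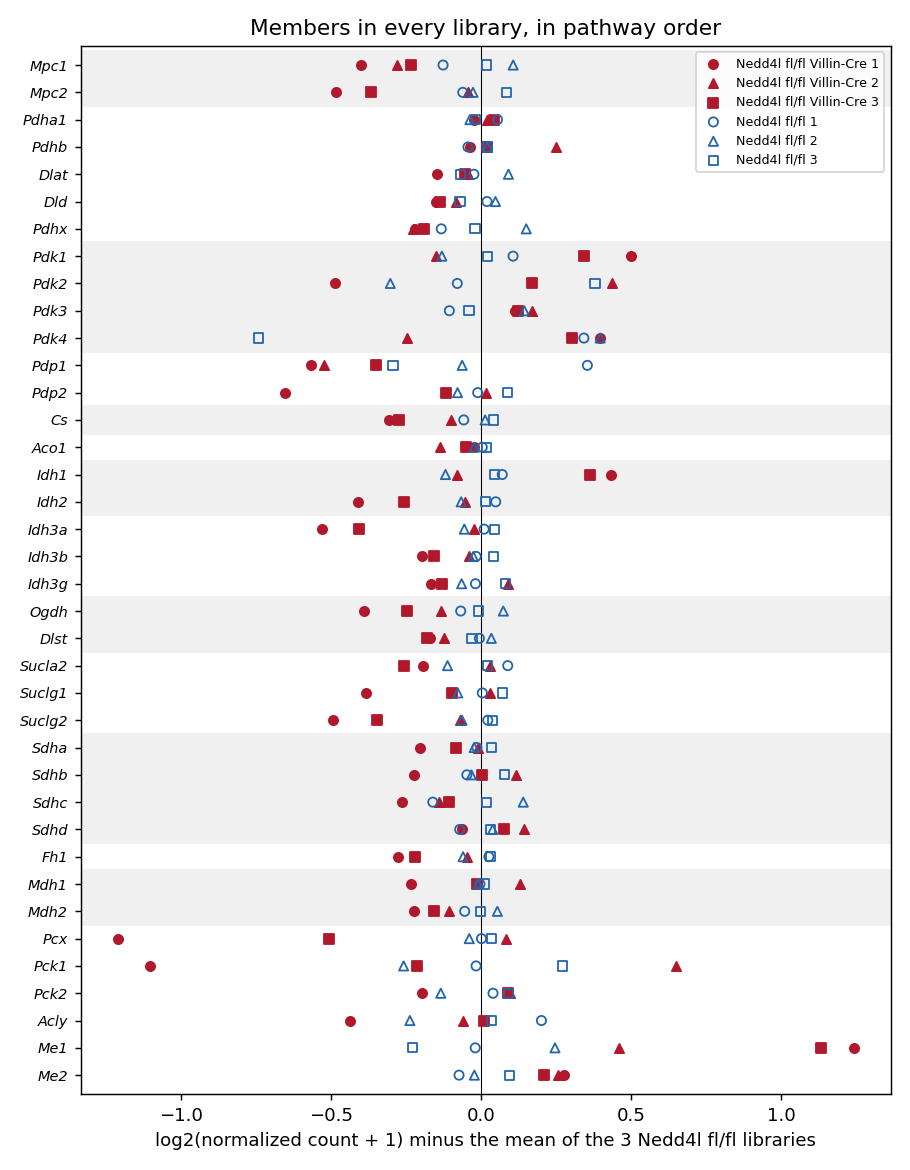
Each member's log2(normalized count + 1) minus its mean over the 3 controls (horizontal axis), with 1 symbol per library and genes in pathway order. Knockout replicate 1 (filled circles) is the lowest library for 25 members, and knockout replicate 2 (filled triangles) often lies among the controls (open symbols).

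Markers of several cell types differed between the genotypes as well. The summed normalized counts of 6 of 6 fibroblast markers ran from 11352 to 23067 in the knockout libraries and from 6112 to 9964 in the controls. Those of 10 of 10 myeloid markers ran from 11079 to 17705 against 8439 to 10459, and those of 7 of 7 proliferation markers from 15163 to 16442 against 18247 to 19417. None of these 3 sums overlapped, but the proliferation and myeloid lists went both ways. The fibroblast list had 6 genes higher, 3 of them without overlap (Col1a1, Col1a2 and Pdpn), while Dcn, Lum and Pdgfra overlapped. Col1a1 and Col1a2 made up a large part of the fibroblast sum. Without them control replicate 1 lay above knockout replicates 2 and 3, so the fibroblast sum then overlapped. The proliferation list had 5 genes lower, 3 of them without overlap (Pcna, Mcm2 and Mcm5), and 2 higher, 1 of the latter without overlap (Ccnb1). Without Pcna, Mcm2 and Mcm5 knockout replicate 3 lay above control replicate 1, so the proliferation sum then overlapped. The myeloid list had 9 genes higher, 2 of them without overlap, and 1 lower (Ly6g, log2 fold change -0.27). Lyz2, 1 of those 2, made up a large part of the myeloid sum. It ran from 4727 to 5830 normalized counts in the knockout libraries and from 2795 to 4254 in the controls. Knockout replicate 3 summed to 11079 with Lyz2 at 4727, and control replicate 3 to 10459 with Lyz2 at 4081. Without Lyz2 knockout replicate 3 lay just below control replicate 3, so the myeloid sum then overlapped between genotypes. The 8 colonocyte markers summed to 27809, 57500 and 29995 in the knockout libraries and to 46576 to 63260 in the controls. Knockout replicates 1 and 3, the libraries with the lower member values, were thus also low in this sum. Its genes did not all follow: 7 were lower and 1 higher, and 0 were without overlap. Slc51b was higher in knockout replicates 1 (553) and 3 (431) than in every other library. Car1 (6379) and Guca2a (3575) of knockout replicate 1 lay among the controls. The part of these markers in the members' values was not tested. General epithelial markers (12 of 12) overlapped, at 256515 to 289378 against 270579 to 294927, and no gene of any of these lists was at 0 in all libraries.

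The marker sums of the other cell types of the tissue overlapped between genotypes, but some of their genes did not. Cd3e of the lymphoid list lay lower in the knockout libraries, and Emcn of the endothelial and Lipe of the adipocyte list lay higher, each without overlap. Goblet cell markers (8 of 8) summed to 96978 to 451592 in the knockout and 153043 to 313395 in the control libraries, and lymphoid markers (8 of 8) to 29904 to 41410 and 21101 to 40308. Jchain made up most of the lymphoid sum, at 28403 to 39655 in the knockout libraries and 19440 to 38977 in the controls. Endothelial markers (6 of 6) ran from 2137 to 3549 against 1468 to 2178, and smooth muscle markers (9 of 9) from 6920 to 12945 against 6042 to 24231. Enteric neuron markers (6 of 6) lay between 94.0 and 308.7 normalized counts. Fat and skeletal muscle, both rich in mitochondrial or anaplerotic enzymes, had low marker sums. The adipocyte sums (7 of 8 markers listed) stayed between 256 and 520, with Adipoq at 0 to 6.99 but Fabp4 at 116 to 250 and Lipe at 103 to 192. The skeletal muscle sums (6 of 9 listed) stayed between 75.2 and 113.5.

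Per kilobase of gene length, the members ran over a wide range of levels in the control colon. Sdhd led with 3400 ± 142 normalized counts per kilobase (SD, n = 3), above Mdh1 (2091 ± 15.2), Cs (1998 ± 70.7) and Sdha (1931 ± 41.8). Cs and Sdha overlapped, as did Acly (1613 ± 242) and Mdh2 (1529 ± 57.7). Ogdh (1331 ± 66.1), Sdhb (1308 ± 62.5) and Me2 (1207 ± 72.4) followed, each overlapping the next, and ahead of Idh1 (1075 ± 75.2). From Idh1 down to Suclg2 (738 ± 27.9), 9 members in a row each overlapped their neighbour. The carriers and the regulators of pyruvate dehydrogenase were at the low end. From Mpc2 (165 ± 8.92) through Pdk1, Mpc1, Pdp2, Pdk2, Pdhx and Pdp1 to Pck2 (86.1 ± 6.95) each overlapped the next, and only Me1 (43.3 ± 7.24) and Pdk4 (3.25 ± 1.34) were lower.

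**Figure D4:**
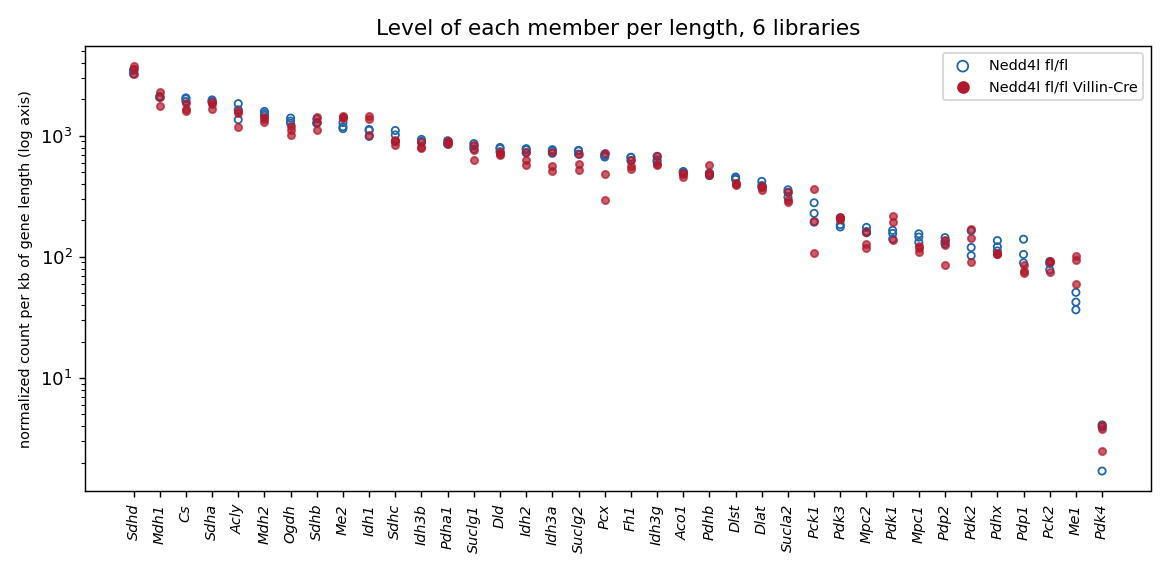
Normalized count per kilobase of gene length (log axis) of each member in the 6 libraries, ordered by the control mean. Levels run from 3400 for Sdhd to 3.25 for Pdk4 in the controls, and Pcx, Pck1, Me1 and Pdk4 spread widely over the libraries.

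Genes around the pathway were read from the same fit, with lists of carriers, linked enzymes, assembly factors and regulators, and limma called none of them. At an unadjusted p under 0.05, 3 carriers, 4 linked enzymes, 1 assembly factor and 3 regulators were lower and 1 linked enzyme was higher (Pkm, 0.26, of glycolysis), with 7.08% and 6.91% of all genes as background. Of the 12 metabolite carriers tested, 8 were lower, 3 of them without overlap (25.0%, against 21.4% of all genes), with a median log2 fold change of -0.02. Slc1a5, which imports glutamine, had -0.28 ± 0.09 (SE), the mitochondrial phosphate carrier Slc25a3 -0.23 ± 0.09, the dicarboxylate carrier Slc25a10 -0.30 ± 0.11 and the aspartate-glutamate carrier Slc25a13 -0.20 ± 0.09. The 30 linked enzymes tested had 20 lower and a median of -0.14, close to that of the members, with 6 not overlapping (20%, against 21.4% of all genes), 5 of those lower. The branched-chain oxoacid dehydrogenase, a relative of the pyruvate and 2-oxoglutarate complexes, differed in direction among its subunits. Its E1 beta subunit Bckdhb had 132, 138 and 141 normalized counts against 199, 217 and 189 (-0.55 ± 0.14, SE) and its E2 Dbt -0.31 ± 0.12. The E1 alpha subunit Bckdha, named after its values were seen, had 111, 134 and 152 against 111, 74.7 and 103 (0.47 ± 0.22, SE); its knockout libraries lay above the controls, by a narrow margin. The alanine transaminase Gpt had -0.45 ± 0.18 (SE) with overlap.

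Of the 15 genes for lipoylation, iron-sulfur clusters, biotin and assembly, 12 were lower (median -0.10) and 3 did not overlap (20%, against 21.4% of all genes). Lipt2, which attaches octanoyl groups on the way to the lipoate arms that Dlat and Dlst need, had 120, 166 and 129 normalized counts against 211, 195 and 194 (-0.54 ± 0.17, SE). Hlcs, which attaches biotin to carboxylases such as Pcx, had -0.33 ± 0.16 (SE) with overlap. Among the 15 regulators 11 were lower (median -0.04) and 4 did not overlap (26.7%, against 21.4% of all genes). Srebf1, a driver of lipid synthesis genes, had 2323, 1858 and 2286 against 2877, 3133 and 3278 normalized counts (-0.53 ± 0.11, SE, adjusted p = 0.172). The carbohydrate-responsive factor Mlxipl had -0.70 ± 0.26 and Tfam, the mitochondrial DNA packaging factor, -0.24 ± 0.10. Esrrg, a nuclear receptor of mitochondrial genes, had 26.8, 199 and 59.8 against 244, 211 and 192 (-1.63 ± 0.69, SE), with knockout replicate 2 among the controls.

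The respiratory chain had a median near that of all genes. Of 72 nuclear-encoded subunits 36 were lower and 36 higher, 7 (9.72%) did not overlap against 21.4% of all genes, and the median was 0.0007. Uqcrc1 and Cyc1 of complex III both had -0.24 (SE 0.08 and 0.09) without overlap. At an unadjusted p under 0.05, 2 subunits were lower and 0 higher. The 13 mitochondrially encoded genes had a median of -0.08 and summed to 413197 to 470216 normalized counts in the knockout and 432360 to 541035 in the control libraries. Only mt-Nd6 of them did not overlap, at 5907, 5465 and 6785 against 7786, 7701 and 8485 (-0.41 ± 0.10, SE, limma, adjusted p = 0.211).

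**Figure D5:**
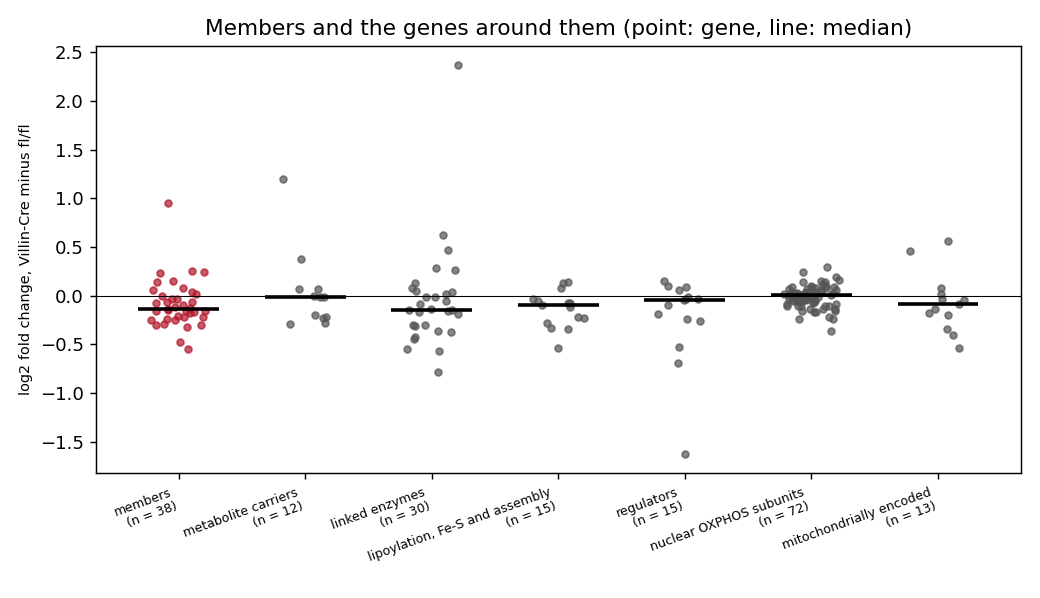
Log2 fold change (vertical axis, Nedd4l fl/fl Villin-Cre minus Nedd4l fl/fl) of the 38 members and of the tested genes of 6 lists around the pathway, with 1 point per gene and a line at the median. The members' median is -0.14, that of the linked enzymes -0.14 and that of the nuclear respiratory chain subunits 0.0007.

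Some members share their locus with another listed gene, and whether the counting used strand is not given in the sources used here. This holds for 13 members. In 12 of these the partner had a mean of under 80 normalized counts or overlapped by a few bases, as Nop56 did with Idh3b (5 bases). Pcx is overlapped over 3883 bases by Lrfn4 on the opposite strand, with means of 635 for Lrfn4 and 2757 for Pcx, so the Pcx values are less certain.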

How the data were processed

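The authors sequenced colonic RNA of 2 genotypes (3 libraries of Nedd4l fl/fl Villin-Cre and 3 of littermate Nedd4l fl/fl colon), all on 2% DSS until day 7, after a NEBNext Ultra preparation. Per the labels, the submitters' processing notes name HISAT2 2.0.5, featureCounts 1.5.0-p3 and a human build. The coordinates of the deposited table were identical to GENCODE release M21 on GRCm38 for 97.0% of its rows and 37 of 38 members, and are given as listed there. The authors deposited normalized counts, a signal in which a gene's reads are scaled by the library's size factor. The size factor method and the strand setting are not given in the sources used here. The genotype means, fold change, p-value and adjusted p-value columns that the authors added were not used.

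Each value was a whole multiple of the library's step (100% of values within 0.001), 0.900 to 1.11 normalized counts. The step of control replicate 3 (0.999) lies too near 1 to tell whole reads from whole values, so count tests were run without it, on 5 libraries, as alternatives chosen after seeing the data. Totals in steps ran from 14914367 to 17547270 and limit the precision of low genes such as Pdk4.

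Genotypes were compared with limma 3.58.1 (lmFit, eBayes with trend and robust settings, R 4.3.3) on log2(value + 1), which understates changes of low genes, for genes with a mean of at least 10, with Benjamini-Hochberg adjustment over all 16246 genes and a threshold of 0.05. The fit was tested on simulated data with larger changes than those of the members, so that test does not bear on shifts of their size. Alternatives were a pseudocount of 5, no filter, quantile normalization, array weights, a replicate block, each library left out, and edgeR 4.0.16 and DESeq2 1.42.0 on 5 libraries. No set test was run. Levels between genes were compared per kilobase.

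The members, the lists and the marker genes were chosen with earlier results of these data known. All 38 members are named. Those without overlap, and Pdk4, Pck1, Pcx, Cs, Idh1 and Mpc1, are given in every library, and of each other list at most the 4 genes with the smallest limma p are named, apart from Pkm and Bckdha, and some genes of those lists are not reported here. Sequences came from RefSeq on GRCm38.p6. Figures were drawn with matplotlib 3.10.9.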

Additional observations from a re-analysis of the deposited data

How the results depend on the processing

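The 38 members were recomputed under 13 alternatives. All 494 values moved by no more than 1 SD between replicates, a limit that most of the alternatives could not exceed. Leaving out 1 library cannot move a value by more than that SD, and the replicate block and the missing filter leave each fold change as it is. In all, 30 members kept their sign throughout, the 12 without overlap among them, though these cannot change sign when a library is left out. The other 8, near 0 or with wide spread, changed sign under some (Pdha1, Pdhb, Pdk2, Pdk4, Sdhb, Mdh1, Pck1 and Pck2). The members' median ran from -0.18 without knockout replicate 2 to -0.05 without knockout replicate 1. Genes called over the whole table went from 0 to 30 with no filter, 631 with array weights and 198 with DESeq2 on 5 libraries, and ran from 0 to 122 when 1 library was left out (24 without knockout replicate 1 and 122 without knockout replicate 2). edgeR on the same 5 libraries called 0, with 815 higher and 824 lower at an unadjusted p under 0.05. Members called went from 0 to 1 (Me1) with array weights and ran from 0 to 1 on leaving out a library. Other pathway genes called went from 0 to 4 with array weights (Slc1a5, Gpt, Lipt2 and Srebf1) and ran from 0 to 1 (Esrrg, -2.39, without knockout replicate 2). Members without overlap ran from 12 to 25 on leaving out a library, while the share over all genes went from 21.4% to between 29.0% and 37.6%, and were 15 after quantile normalization (21.4%). Nedd4l was -1.09 with array weights and ran from -1.28 (without knockout replicate 2, adjusted p = 0.0131) to -0.79. The cause of these shifts was not tested.

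Fitting the replicate number as a block called 0 genes, with 1204 higher and 1052 lower at an unadjusted p under 0.05. No label names a shared litter or day, so whether the numbers pair the mice is not known. Same-numbered libraries had correlations of -0.029, -0.090 and -0.056 between their deviations. Pairs of unlike number ran from -0.024 to 0.064. With 3 libraries of each genotype these values were too few to decide whether the numbers pair the mice. The block changed no call, but the main fit had none to lose. The planned edgeR and DESeq2 fits on all 6 libraries were not run, since whole reads could not be shown for control replicate 3.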
